A study of Homo sapiens with 6 samples.

Results

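The 43 genes described here encode proteins of the lysosome: 7 proteins of its membrane, 10 proteases, 11 glycosidases and sulfatases, 5 proteins that handle lipids together with progranulin, the transcription factors TFEB and TFE3, and 7 genes of the proton pump known as the V-ATPase. They were chosen by gene symbol from a table of 46427 genes. All 43 were in the table, and all 43 were among the 17990 genes that passed the filter on low counts. The table came from VK2/E6E7, an established human cell line from vaginal epithelium, labelled WT, that carries the papillomavirus genes E6 and E7. It was grown in a keratinocyte serum-free medium with epidermal growth factor, bovine pituitary extract and antibiotics. Cells of 1 group received PBS, and cells of the other received HMU, the lactic acid bacterium Lactobacillus salivarius HHuMin-U, dosed at 1e8 CFU/mL. RNA was taken after 6 h in both groups, with 3 biological replicates each. The question was how the bacterium changes gene expression in the epithelial cells, and every comparison is HMU against PBS in this 1 line.

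Lysosomes are acid compartments in which proteins, glycans and lipids are broken down. The V-ATPase pumps protons into them, most of the soluble enzymes reach them with a mannose 6-phosphate tag, and membrane proteins shield the limiting membrane and carry the products out. Many lysosomal genes have a short palindromic element near their start, called CLEAR, which contains the E-box CACGTG and is bound by TFEB, TFE3 and MITF, the MiT/TFE factors. In squamous epithelium cathepsins also take part in the turnover of the cornified layers.

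Promoter windows from RefSeq on GRCh38.p14, each 300 bases long with 250 bases before a start site, were matched to 31 of the 43 genes and gave 45 windows. A gene could have several windows, and some, as for CD63 and SCARB2, lay inside the gene rather than at its annotated start. ARSA, ASAH1, ATP6V1A, ATP6V1B2, ATP6V1C1, ATP6V1H, CTSB, CTSS, HEXA, LAMP2, PSAP and SGSH were without one. The letters CACGTG, searched on both strands, stood in 9 of the 45 windows (20%), in 7.26% of all 35116 windows and in 9.10% of the windows of tested genes. The longer TCACGTGA stood in 11.1% of the windows of the lysosomal genes, 0.980% of all windows and 1.53% of the windows of tested genes. For GTCACGTG the shares were 15.6%, 2.40% and 3.58%. In 195 windows of other genes of the lysosome and its supply, listed below, CACGTG, TCACGTGA and GTCACGTG stood in 18.5%, 9.23% and 14.4%. The shares were thus not particular to the lysosomal genes described here. The 3 motifs overlap, since both longer ones contain the shorter. By gene, CACGTG was found for LAMP1, MCOLN1, GAA, CTSA, CTSD, CD63, NEU1, ARSB and ATP6V0D1, which is 29.0% of the 31 genes against 12.1% of tested genes with a window. CD63 and ARSB also had windows without a match, and the match of CD63 lay inside the gene. The 4 windows with more than 1 match, and those of CD68 and CTSC, which had the largest rises after HMU among the genes with a window, are shown from 250 bases before the start to the 5th base from it, 5′ to 3′, with CACGTG in capitals.
LAMP1 (chr13:113296989-113297243, plus strand): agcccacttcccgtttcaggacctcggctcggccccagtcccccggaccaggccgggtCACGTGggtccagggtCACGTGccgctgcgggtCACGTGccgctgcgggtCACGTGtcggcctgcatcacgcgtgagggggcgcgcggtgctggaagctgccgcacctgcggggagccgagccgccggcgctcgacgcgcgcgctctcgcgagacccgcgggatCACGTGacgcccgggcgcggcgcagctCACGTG
MCOLN1 (chr19:7522374-7522628, plus strand): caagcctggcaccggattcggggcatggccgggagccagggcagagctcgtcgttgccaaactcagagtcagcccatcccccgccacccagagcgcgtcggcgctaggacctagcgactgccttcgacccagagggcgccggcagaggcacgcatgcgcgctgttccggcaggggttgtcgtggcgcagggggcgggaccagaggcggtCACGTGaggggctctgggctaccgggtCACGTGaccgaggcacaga
GAA (chr17:80101331-80101585, plus strand): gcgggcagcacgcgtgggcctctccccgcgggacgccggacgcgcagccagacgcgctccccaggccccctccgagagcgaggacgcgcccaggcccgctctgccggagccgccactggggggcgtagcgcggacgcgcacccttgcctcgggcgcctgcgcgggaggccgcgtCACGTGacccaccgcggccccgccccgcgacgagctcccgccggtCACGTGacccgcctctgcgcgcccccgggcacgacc
CTSA (chr20:45891085-45891339, plus strand): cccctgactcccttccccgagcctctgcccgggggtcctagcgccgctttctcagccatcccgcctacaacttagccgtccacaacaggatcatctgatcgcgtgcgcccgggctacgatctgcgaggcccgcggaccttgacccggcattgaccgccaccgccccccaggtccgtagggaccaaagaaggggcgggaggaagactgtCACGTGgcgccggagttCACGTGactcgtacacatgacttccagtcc
CD68 (chr17:7579388-7579642, plus strand): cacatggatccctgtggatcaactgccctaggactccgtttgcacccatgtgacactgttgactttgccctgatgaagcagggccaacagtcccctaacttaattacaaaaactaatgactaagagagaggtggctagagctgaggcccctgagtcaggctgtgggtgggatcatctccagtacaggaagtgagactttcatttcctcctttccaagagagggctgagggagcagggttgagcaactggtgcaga
CTSC (chr11:88337732-88337986, minus strand): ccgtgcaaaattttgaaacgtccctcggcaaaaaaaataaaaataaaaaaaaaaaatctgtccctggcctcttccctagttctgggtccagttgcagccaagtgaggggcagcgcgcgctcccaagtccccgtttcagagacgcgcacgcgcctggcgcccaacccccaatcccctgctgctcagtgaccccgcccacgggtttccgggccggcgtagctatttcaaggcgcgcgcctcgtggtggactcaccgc

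LAMP1 held 6 matches, which began 192, 176, 159, 142, 28 and 1 bases before the start, and MCOLN1, GAA and CTSA held 2 each. The windows of CD68 and CTSC held none. Of the 9 genes with CACGTG in a window, 2 were higher after HMU, 1 was lower and 6 did not pass the test, with a median log2 fold change of 0.056. Of the 22 genes with a window and no match, 9 were higher, 2 were lower and 11 did not pass, with a median of 0.14. Over all tested genes 24.8% were higher and 24.9% lower, with a median of -0.0025. The difference between the 9 and the 22 genes was not tested. A match is a description of these letters, and nothing about the binding of a factor follows from it.

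Each library held between 64292566 and 65957584 counts. HMU replicate 2 stood apart: a chi-square test of gene counts gave 69.7 per degree of freedom against HMU replicate 1 and 120 against HMU replicate 3, where HMU replicates 1 and 3 gave 14.6 and the PBS libraries 5.15 to 6.29. It was the highest HMU library for 25 of the 43 genes (58.1%, against 42.3% of all tested genes) and the lowest for 14 (32.6%, against 42.9%). The 9 squamous epithelial markers were all tested, with 4 higher and 1 lower. Their summed level was 65893 ± 315 CPM (counts per 1000000, scaled between libraries by TMM; mean ± SD) in PBS and 71067 ± 7574 CPM in HMU, while in TPM the ratio of HMU to PBS was 0.81. KRT5 had a mean of 34973 CPM in PBS and 37375 in HMU and did not pass the test. Among 10 leukocyte markers CD163, AIF1 and MS4A1 had 0 counts in all 6 libraries, LYZ had 0 counts in the 3 PBS libraries, and PTPRC had at most 11 counts in any library. In whole cultures fewer cells of a kind and less RNA per cell cannot be told apart.

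After 6 h with HMU, 7 of the 10 protease genes, CTSC and CTSS foremost, and the membrane protein genes CD68 and CD63 were higher, among others, and ARSB, SCARB2, TFEB, ASAH1 and the V-ATPase subunit gene ATP6V1A were lower. CTSS had only 21 to 85 counts per library. Over 16 alternative analyses, ARSB and ATP6V1A kept their call in all 16, SCARB2 in 11, TFEB in 9 and ASAH1 in 8. At a Benjamini-Hochberg adjusted p under 0.05 in edgeR's quasi-likelihood test, 16 of the 43 genes were higher (37.2%), where 24.8% of all tested genes were, and 5 were lower (11.6%), where 24.9% of all tested genes were. The other 22 did not pass. Both directions together came to 48.8% of the 43 genes and 49.7% of all tested genes, so the share called was close to the background.

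The changes were mostly small. Of the 43 genes 5 were called with a change of at least 1.5-fold (11.6%, against 29.3% of tested genes), and 3 of these, CTSS, CD68 and CTSC, reached at least 2-fold (6.98%, against 15.5%). The median absolute log2 fold change was 0.22 for the 43 genes and 0.40 for all tested genes, and the median with its sign was 0.14 against -0.0025. All 3 HMU libraries lay above all 3 PBS libraries for 22 of the 43 genes (51.2%, against 30.3% of tested genes), and below them for 8 (18.6%, against 32%). For 13 the groups overlapped; over all tested genes 62.3% did not overlap in either direction. The median coefficient of variation of the 43 genes was 1.95% in PBS and 9.07% in HMU. Without HMU replicate 2, 22 of the 43 genes were higher and 5 lower, against 29.4% and 29.7% of the genes then tested.

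**Figure D1:**
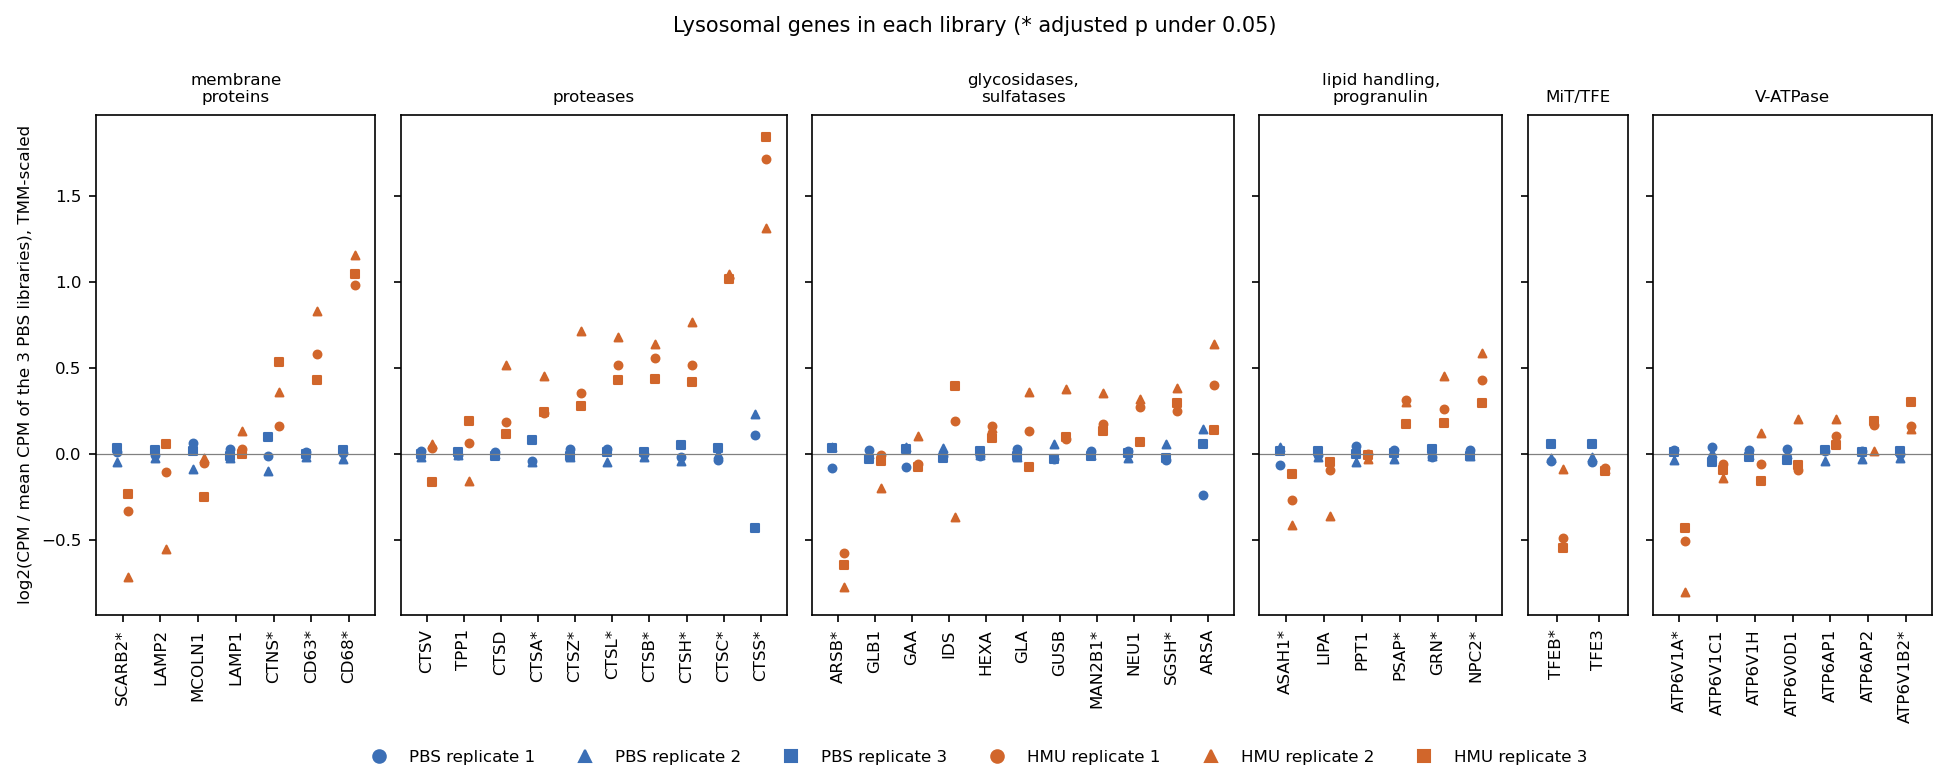
Level of each of the 43 genes in each library as log2 of TMM-scaled CPM over the mean of the 3 PBS libraries, with PBS in blue, HMU in orange and a symbol for each replicate; an asterisk marks an adjusted p under 0.05. CTSS, CD68 and CTSC stand highest in HMU, ARSB, SCARB2 and ATP6V1A stand lowest, and the triangles of HMU replicate 2 often lie farthest from the PBS points.

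The direction of the smaller changes depends on how libraries are scaled. TMM gave factors of 1.10 to 1.11 to the PBS libraries and 0.893 to 0.920 to the HMU libraries. When the libraries were scaled by their sizes alone, the middle gene of all those tested had a log2 fold change of -0.28 and the middle gene of the 43 had -0.14. Then 7 of the 43 were higher and 17 lower, against 13.4% and 43.7% of all tested genes. On log2(TPM + 1) with limma-trend, 6 were higher and 24 lower, against 10.98% and 50.9%, and the middle gene of all had -0.27. CD63, CD68, CTSB, CTSC, CTSL and CTSS were higher under TMM, RLE, library sizes only and TPM alike, and ARSB, ATP6V1A, SCARB2 and TFEB were lower under all of them. ASAH1 was lower under 3 of these scalings and missed the threshold with RLE (edgeR adjusted p = 0.054). MAN2B1 passed as higher under TMM and as lower on the TPM scale.

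**Figure D2:**
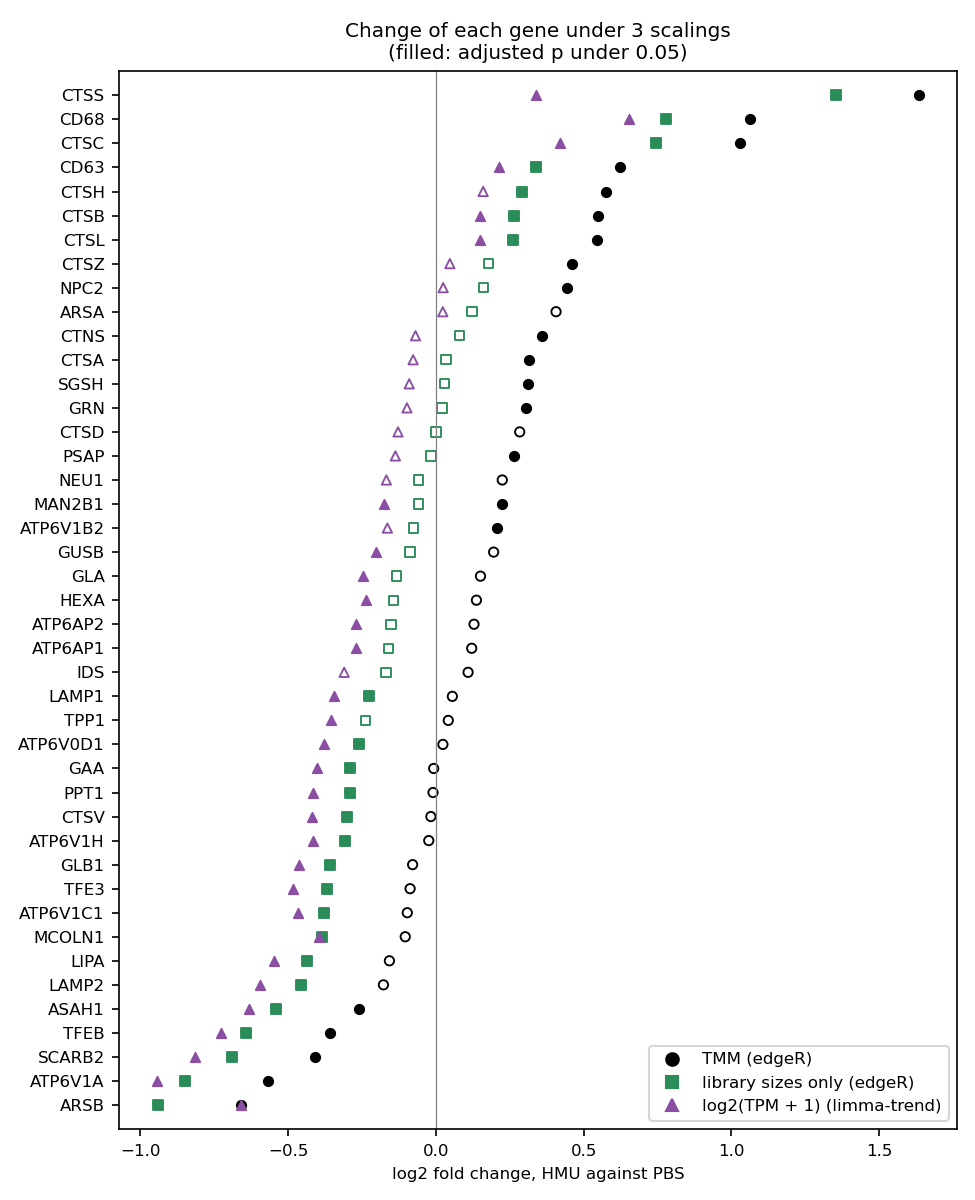
Log2 fold change of each of the 43 genes, HMU against PBS, with TMM scaling (black circles), with library sizes only (green squares) and on log2(TPM + 1) (purple triangles); filled symbols have an adjusted p under 0.05. CTSS, CD68, CTSC, CD63, CTSB and CTSL on the right, filled at all 3 scalings, and ARSB, ATP6V1A, SCARB2, TFEB and ASAH1 on the left, keep their side, while many of the genes between them change sign or call.

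Of the 7 membrane proteins CD68, CD63 and CTNS rose, SCARB2 fell, and LAMP1, LAMP2 and MCOLN1 did not pass the test. With library sizes only, and likewise on the TPM scale, 2 of the 7 were higher and 4 lower. The shares of all tested genes were 13.4% and 43.7% with library sizes only, and 10.98% and 50.9% on the TPM scale. CD68 (gene ID 968, chr17:7579638-7582111) encodes a heavily glycosylated protein of the LAMP family that is best known from macrophages. Its levels were 57.9, 56.6 and 58.8 CPM in PBS replicates 1 to 3 and 114, 128 and 119 CPM in HMU replicates 1 to 3. Every HMU library was far above every PBS library, with a mean 2.09 times higher (log2 fold change 1.06 ± 0.071, where ± gives the SE here and in all later fold changes; edgeR adjusted p = 2.1e-05). CD68 overlaps the antisense gene MPDU1-AS1 by 145 bases, and the sources used here do not say whether counting used strand. That antisense gene had between 571 and 685 counts in the PBS libraries and 282 to 420 in the HMU libraries. CD68 had 4048 to 4238 and 6749 to 7383 counts. Over the 6 libraries the totals were 2883 for the antisense gene and 33751 for CD68.

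Markers of other cell types moved beside CD68. For leukocytes the summed level of the 10 markers was 7.97 to 8.70 CPM in PBS and 13.1 to 16.3 CPM in HMU. Of the 4 that were tested CD14, S100A12 and ITGAM were higher and CSF1R was lower, from 6.21 ± 0.327 to 2.64 ± 0.302 CPM (mean ± SD, n = 3, as for all levels given so). Of 7 fibroblast markers 5 were tested, none was higher and 3 were lower, and their summed level was 138 ± 1.94 CPM in PBS and 113 ± 7.77 CPM in HMU. Of 5 endothelial markers 4 were tested, 3 were higher and 1 was lower, and their summed level was 0.956 ± 0.148 CPM in PBS and 3.15 ± 0.455 CPM in HMU. The part of these markers in the result for CD68 was not tested.

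CD63 (gene ID 967, chr12:55723535-55730041) encodes a tetraspanin of late endosomes, lysosomes and exosomes, and was the most abundant of the membrane proteins per transcript length, in TPM. It measured 136, 133 and 135 CPM in the PBS libraries and 201, 240.3 and 182 CPM in the HMU libraries. The HMU libraries were all higher and spread widely, with replicate 2 at the top (log2 fold change 0.62 ± 0.10, edgeR adjusted p = 0.002). CTNS, which encodes the exporter of cystine, had 8.92 ± 0.617 CPM in PBS and 11.5 ± 1.45 CPM in HMU, with a log2 fold change of 0.36 ± 0.11 and an edgeR adjusted p of 0.032. That call was lost without any 1 PBS library or without HMU replicate 3, with adjusted p from 0.056 to 0.12. It was also lost with no filter on low counts (adjusted p = 0.053) and with library sizes only (adjusted p = 0.58), and on the TPM scale the log2 fold change was -0.069. CTNS also overlaps the more highly counted TAX1BP3 by 209 bases.

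SCARB2, the receptor that carries glucocerebrosidase to the lysosome, was the membrane protein that fell. It had 234, 225 and 238 CPM in PBS and 185, 142 and 198 CPM in HMU, with no overlap and HMU replicate 2 lowest (log2 fold change -0.41 ± 0.12, edgeR adjusted p = 0.024). Without HMU replicate 1 or any 1 PBS library the adjusted p was 0.054 to 0.081. LAMP1, whose product is a major glycoprotein of the limiting membrane, had 309.9 ± 5.54 and 322 ± 15.8 CPM. LAMP2, its relative that also serves chaperone-mediated autophagy, had 188 ± 3.16 and 166 ± 34.4 CPM, and HMU replicate 2 lay far below the rest at 128 CPM. The ratio of LAMP1 to LAMP2 counts within a library is untouched by scaling and, not being per length, compares only the groups. It was 1.69, 1.65 and 1.61 in PBS and 1.81, 2.65 and 1.58 in HMU, and the groups overlapped. MCOLN1, the calcium-releasing channel of the lysosome, had 3.80 ± 0.201 and 3.53 ± 0.292 CPM. The genes SCARB2, CTNS, LAMP1, LAMP2 and MCOLN1 are given with values although the rule for per-library values did not ask for them, after their values had been seen.

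Of the 10 proteases 7 rose and none fell: CTSS, CTSC, CTSH, CTSB, CTSL, CTSZ and CTSA. CTSD, CTSV and TPP1 did not pass the test. In 8 of the 10 all HMU libraries were above all PBS libraries, against 30.3% of all tested genes. Scaled by library size alone, 5 were higher and 1 lower, against 13.4% and 43.7% of all tested genes, and on the TPM scale 4 were higher and 2 lower, against 10.98% and 50.9%.

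CTSS (gene ID 1520, chr1:150730188-150765778) encodes cathepsin S, a cysteine protease that stays active at neutral pH and trims the invariant chain of class II molecules in antigen-presenting cells. It was the scarcest of the 43 genes, with 0.424, 0.461 and 0.291 CPM in PBS and 1.28, 0.975 and 1.40 CPM in HMU. Each HMU library was above each PBS library, and HMU replicate 2 was the lowest of its group. The log2 fold change of 1.63 ± 0.24 (edgeR adjusted p = 0.0011) was the largest of the 43, at counts between 21 and 85 per library. Cathepsin S is abundant in leukocytes, whose markers are given beside CD68, and their part in the result for CTSS was not tested. Under a filter of 1 CPM in 3 libraries the gene was not tested.

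CTSC (gene ID 1075, chr11:88293592-88337736) encodes dipeptidyl peptidase I, which removes dipeptides and activates serine proteases of leukocyte granules. It had 124, 127 and 130.3 CPM in PBS and 258, 263 and 257 CPM in HMU. Both groups were tight, HMU replicate 2 lay beside the other HMU libraries, and the level in HMU was 2.04 times that in PBS (log2 fold change 1.03 ± 0.058, edgeR adjusted p = 9.5e-06). This was the smallest adjusted p of the 43 genes.

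CTSD (gene ID 1509, chr11:1752755-1763927) encodes the aspartic protease cathepsin D and was the most abundant of the 43 genes per length, at 858 TPM in PBS and 787 TPM in HMU. Its TMM-scaled levels were 756, 749 and 744 CPM in PBS and 853, 1071 and 813 CPM in HMU. The HMU libraries lay above the PBS libraries on that scale, but replicate 2 was far above the other two and the test did not pass (log2 fold change 0.28 ± 0.10, edgeR adjusted p = 0.055). Without HMU replicate 2 the spread shrank and the gene was higher (log2 fold change 0.16, adjusted p = 0.0064). It was also higher without HMU replicate 3 and with RLE scaling or DESeq2, and its log2 fold change on the TPM scale was -0.13.

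CTSH, CTSB, CTSZ and CTSA rose less. CTSH, an aminopeptidase, had a log2 fold change of 0.58 ± 0.099, CTSB, an abundant cysteine protease, 0.55 ± 0.071, and CTSZ, a carboxypeptidase, 0.46 ± 0.11 (edgeR adjusted p = 0.0023, 0.00057 and 0.012). CTSA, which stabilises the enzymes of GLB1 and NEU1, had 0.32 ± 0.083 (edgeR adjusted p = 0.016). The call of CTSA was lost without PBS replicate 1 or 2 (adjusted p = 0.07 and 0.071), and CTSA overlaps PLTP by 201 bases. With library sizes only, the log2 fold changes of CTSA and CTSZ were 0.034 and 0.18 (edgeR adjusted p = 0.73 and 0.19), and neither was called on the TPM scale, where that of CTSA was -0.077.

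CTSL and CTSV encode close relatives, cathepsin L and the epidermal cathepsin V, and are given together after their values had been seen. CTSL had 52.8, 50.01 and 52.1 CPM in PBS and 73.8, 82.6 and 69.5 CPM in HMU. CTSV had 256, 251 and 253 CPM in PBS and 260.0, 264 and 227 CPM in HMU. CTSL rose in every HMU library (log2 fold change 0.54 ± 0.082, edgeR adjusted p = 0.0012), while CTSV overlapped between the groups (log2 fold change -0.017 ± 0.075, edgeR adjusted p = 0.87). The ratio of CTSL to CTSV within a library was 0.206, 0.199 and 0.206 in PBS and 0.284, 0.313 and 0.306 in HMU, so the groups were apart without any scaling between libraries. TPP1, a tripeptidyl peptidase, had 63.2 ± 0.396 and 65.0 ± 7.75 CPM.

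Of the 11 glycosidases and sulfatases SGSH and MAN2B1 rose, ARSB fell, and 8 did not pass the test. With library sizes only none was higher and 3 were lower, against 13.4% and 43.7% of all tested genes. On the TPM scale none was higher and 7 were lower, against 10.98% and 50.9%. ARSB (gene ID 411, chr5:78777209-78985958) encodes the sulfatase that acts on dermatan and chondroitin sulfate. It had 4.21, 4.58 and 4.56 CPM in PBS and 2.99, 2.61 and 2.85 CPM in HMU. The groups did not overlap, and this was the largest fall of the 43 genes with TMM (log2 fold change -0.66 ± 0.11, edgeR adjusted p = 0.0018). It was lower in each of the 16 alternatives tried.

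SGSH (gene ID 6448, chr17:80200673-80220333) encodes the sulfatase of heparan sulfate that removes N-linked sulfate. It had 20.1, 21.4 and 20.2 CPM in PBS and 24.5, 26.8 and 25.3 CPM in HMU. All HMU libraries were higher by a small step (log2 fold change 0.31 ± 0.072, edgeR adjusted p = 0.0093), but with library sizes only the log2 fold change was 0.029. The call was also lost without PBS replicate 1 or 3 (adjusted p = 0.053 and 0.053). The span of SGSH overlaps that of CARD14 by 8659 bases.

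MAN2B1 (gene ID 4125, chr19:12646512-12666742), the lysosomal alpha-mannosidase and the most abundant of these enzymes, had 76.8, 75.6 and 75.2 CPM in PBS and 85.6, 97.0 and 83.2 CPM in HMU. HMU replicate 2 was the highest, and the rise was small (log2 fold change 0.22 ± 0.077, edgeR adjusted p = 0.043). The call was lost without HMU replicate 1 or any 1 PBS library, with adjusted p from 0.078 to 0.14. It was also lost with library sizes only, and on the TPM scale MAN2B1 was lower. In all, the call was kept in 7 of the 16 alternatives.

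Of the enzymes that did not pass, the sulfatide sulfatase gene ARSA (log2 fold change 0.41 ± 0.15, edgeR adjusted p = 0.053) and the sialidase gene NEU1 (log2 fold change 0.22 ± 0.085, edgeR adjusted p = 0.06) were nearest to the threshold. ARSA was higher without HMU replicate 3 (adjusted p = 0.014), and NEU1 without HMU replicate 2 or 3 (adjusted p = 0.041 and 0.012). HEXA, a subunit of the hexosaminidase that degrades gangliosides, had 56.2 ± 0.533 and 61.8 ± 1.63 CPM. It was higher without HMU replicate 2 (adjusted p = 0.028).

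IDS, a sulfatase of heparan and dermatan sulfate, had 53.9, 55.7 and 53.6 CPM in PBS and 62.0, 42.3 and 71.6 CPM in HMU, and only HMU replicate 2 lay below the PBS libraries. Without that library IDS was higher (log2 fold change 0.30, edgeR adjusted p = 0.0025). GAA, which degrades glycogen, GLA and GLB1, both galactosidases, and GUSB, a glucuronidase, had log2 fold changes from -0.079 to 0.20. GUSB shares sequence with pseudogenes: 11 of them had counts, which came to 70.9% of the GUSB counts in PBS and 36.7% in HMU, so its value is uncertain. GLA overlaps the readthrough gene RPL36A-HNRNPH2.

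Of the 5 lipid-handling proteins and progranulin, NPC2, PSAP and GRN rose, ASAH1 fell, and LIPA and PPT1 did not pass the test. None of them was higher and 3 were lower when scaled by library size alone, against 13.4% and 43.7% of all tested genes. Counts on the TPM scale were the same, against 10.98% and 50.9% of all tested genes. NPC2 (gene ID 10577, chr14:74479935-74493512) encodes a soluble cholesterol carrier. It had 98.1, 95.9 and 95.8 CPM in PBS and 130.2, 145 and 119 CPM in HMU. Every HMU library was higher, and replicate 2 was the highest (log2 fold change 0.44 ± 0.084, edgeR adjusted p = 0.0038).

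GRN (gene ID 2896, chr17:44345302-44353106) encodes progranulin, a secreted and lysosomal protein that is cut into granulins. It had 310.0, 311 and 319 CPM in PBS and 376, 429.6 and 355 CPM in HMU (log2 fold change 0.30 ± 0.081, edgeR adjusted p = 0.017). The groups did not overlap, and without any 1 PBS library the adjusted p was 0.057 to 0.068. PSAP (gene ID 5660, chr10:71816298-71851251) encodes prosaposin, the precursor of the saposins that help glycolipid-degrading enzymes. It had 638, 614 and 629 CPM in PBS and 779, 772 and 709 CPM in HMU. The HMU libraries were all above the PBS libraries (log2 fold change 0.26 ± 0.062, edgeR adjusted p = 0.0099), and without PBS replicate 2 the adjusted p was 0.056. With library sizes only, the log2 fold changes of NPC2, GRN and PSAP were 0.16, 0.020 and -0.017, and none of the 3 was called.

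ASAH1, acid ceramidase, had 30.5 ± 1.16 CPM in PBS and 25.4 ± 2.59 CPM in HMU (log2 fold change -0.26 ± 0.091, edgeR adjusted p = 0.045). The call was lost without HMU replicate 1 or any 1 PBS library, with adjusted p from 0.087 to 0.15. LIPA, the acid lipase of cholesteryl esters, had 97.5 ± 1.16 and 87.4 ± 9.87 CPM with all HMU libraries below all PBS libraries, and did not pass (edgeR adjusted p = 0.19). Its annotated span overlaps several IFIT genes. PPT1, which removes palmitate from proteins, had 127 ± 4.16 and 126 ± 1.36 CPM and overlaps the more highly counted CAP1 by 1188 bases.

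Neither of the MiT/TFE factors on the list, which switch on many of these genes, passed the test as higher. TFEB (gene ID 7942, chr6:41683978-41736223) had 21.6, 21.8 and 23.1 CPM in PBS and 15.8, 20.9 and 15.2 CPM in HMU. HMU replicates 1 and 3 were clearly lower, while HMU replicate 2 lay just under the PBS libraries (log2 fold change -0.36 ± 0.13, edgeR adjusted p = 0.047). The call was lost without any 1 PBS library and without HMU replicate 1 or 3, with adjusted p from 0.092 to 0.14. TFE3 (gene ID 7030, chrX:49028726-49043357) had 74.8, 76.5 and 80.4 CPM in PBS and 73.0, 72.8 and 72.2 CPM in HMU. All HMU libraries were just below the PBS libraries, and the test did not pass (log2 fold change -0.087 ± 0.063, edgeR adjusted p = 0.28), although TFE3 was lower with library sizes only. The ratio of TFEB to TFE3 within a library was 0.289, 0.285 and 0.287 in PBS and 0.216, 0.286 and 0.210 in HMU, with overlap. RNA levels do not show where these factors are in the cell, which is how their activity is known to be set.

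The related factor MITF and PPARGC1A, a coactivator linked to TFEB, were the tested genes of their list of 3, and both were lower. MITF had 1.72, 1.31 and 1.55 CPM in PBS and 0.422, 0.296 and 0.396 CPM in HMU. Every HMU library was far below every PBS library (log2 fold change -2.04 ± 0.21, edgeR adjusted p = 0.00017). PPARGC1A stayed under 1 CPM in all 6 libraries.

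Of the 7 V-ATPase genes ATP6V1A fell, ATP6V1B2 rose and 5 did not pass the test. ATP6V1A (gene ID 523, chr3:113747035-113812056) encodes the catalytic subunit of the V1 sector, which splits ATP. It had 75.3, 72.6 and 74.7 CPM in PBS and 52.3, 42.6 and 55.1 CPM in HMU. All HMU libraries were lower, HMU replicate 2 the lowest (edgeR adjusted p = 0.0028, log2 fold change -0.57 ± 0.10), and ATP6V1A was lower in each of the 16 alternatives. ATP6V1B2 (gene ID 526) encodes the subunit that pairs with it in the head of the pump. It had 26.3, 25.9 and 26.6 CPM in PBS and 29.4, 29.1 and 32.3 CPM in HMU (log2 fold change 0.21 ± 0.072, edgeR adjusted p = 0.047). The HMU libraries were higher by a small step. The call was lost without any 1 PBS library and without HMU replicate 1 or 3, with adjusted p from 0.092 to 0.16, and scaled by library size alone its log2 fold change was -0.075.

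ATP6AP1 (gene ID 537, chrX:154428677-154436516), an accessory protein of pump assembly and the most abundant of the 7 per length, had 85.4, 82.1 and 85.6 CPM in PBS and 90.6, 97.1 and 87.5 CPM in HMU. The HMU libraries lay above the PBS libraries by less than the test required (log2 fold change 0.12 ± 0.068, edgeR adjusted p = 0.17). The other accessory protein gene, ATP6AP2, had a log2 fold change of 0.13 ± 0.07 and was higher without HMU replicate 2 (edgeR adjusted p = 0.0039). ATP6V0D1, which joins the membrane sector to the stalk, ATP6V1C1 and ATP6V1H, both regulatory V1 subunits, had log2 fold changes from -0.097 to 0.024. Scaled by library size alone, 4 of the 7 genes were lower and none was higher, against 43.7% and 13.4% of all tested genes.

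The other V-ATPase subunits included the largest change of the pathway. Of 18 listed, 17 were tested, 6 were higher and 2 lower. ATP6V1C2, an alternative form of the C subunit, had 1.67, 2.53 and 2.55 CPM in PBS and 31.5, 25.0 and 30.5 CPM in HMU (log2 fold change 3.69 ± 0.18, edgeR adjusted p = 4.5e-06). The count ratio of ATP6V1C2 to ATP6V1C1 within a library was 0.0395, 0.0614 and 0.0642 in PBS and 0.799, 0.670 and 0.792 in HMU, a mean 13.7 times higher. ATP6V0D2, the alternative form of the d subunit known from osteoclasts and kidney, fell from 1.06 ± 0.0765 to 0.507 ± 0.0447 CPM (log2 fold change -1.06 ± 0.17, edgeR adjusted p = 0.0017), and its ratio to ATP6V0D1 was 0.0186 in PBS and 0.00884 in HMU, with no overlap. TCIRG1, ATP6V0B and ATP6V0C of the membrane sector were also higher, at log2 fold changes of 0.89, 0.58 and 0.46, and were picked out after their values were seen. Among all 24 tested V-ATPase genes 7 were higher and 3 lower (29.2% and 12.5%, against 24.8% and 24.9% of all tested genes). With library sizes only, the other subunits had 3 genes higher and 8 lower, against 13.4% and 43.7% of all tested genes.

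**Figure D3:**
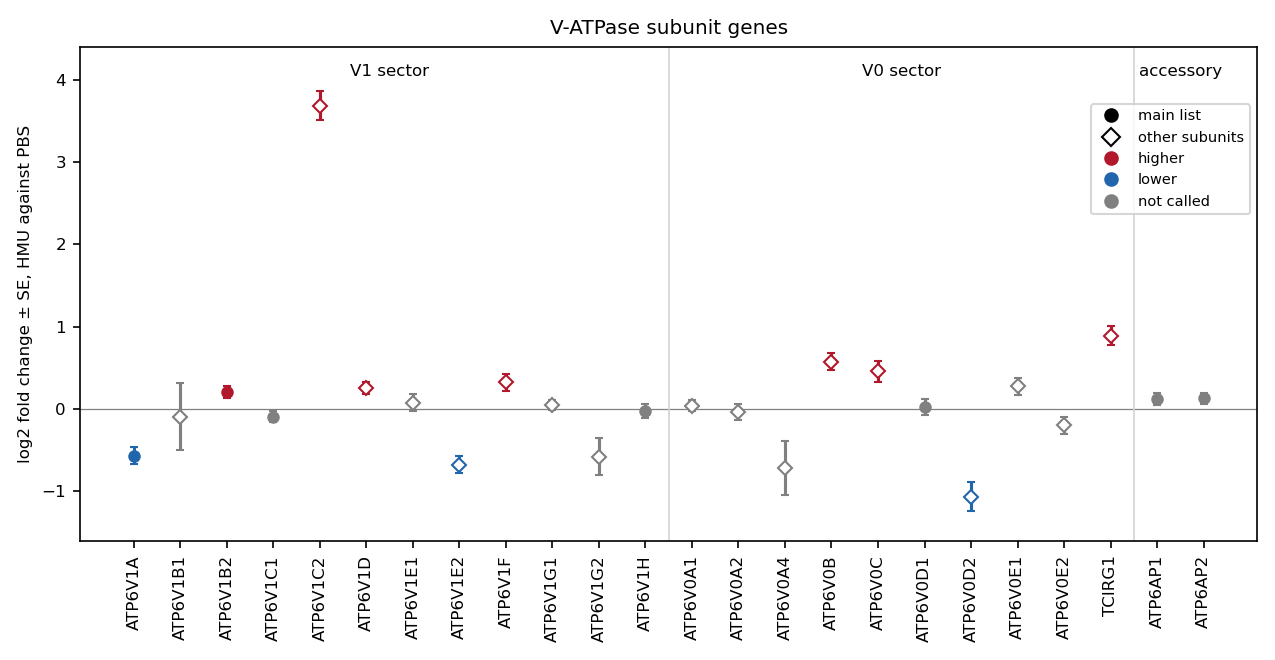
Log2 fold change with its SE for the 24 tested V-ATPase genes, HMU against PBS, by sector of the pump; circles are the 7 genes described first, diamonds the other subunits, red is higher, blue lower and grey did not pass the test. ATP6V1C2 stands alone near 3.69, while ATP6V1A, ATP6V1E2 and ATP6V0D2 lie below 0. Genes that did not pass the test, such as ATP6V1C1 and ATP6V1H, also lie below 0.

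Per transcript length, in the deposited TPM, the 43 genes covered more than 3 orders of magnitude in PBS. CTSD led with 858 TPM, followed by PSAP with 536, GRN with 339.5, CTSZ with 319, CD63 with 306, NPC2 with 273 and LAMP1 with 270.0. CTNS, MCOLN1, ARSB and CTSS closed the order with 6.71, 4.27, 2.26 and 0.227 TPM. Neighbours in that order overlapped over the 3 PBS libraries in 15 of 42 pairs, among them NPC2 with LAMP1, CTSC with CTSV, and CTSL with CD68. In HMU, CTSD and PSAP still led, CD63 moved from place 5 to 3 with 355 TPM and GRN from 3 to 5 with 317, while CD68 moved from place 19 to 9.

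**Figure D4:**
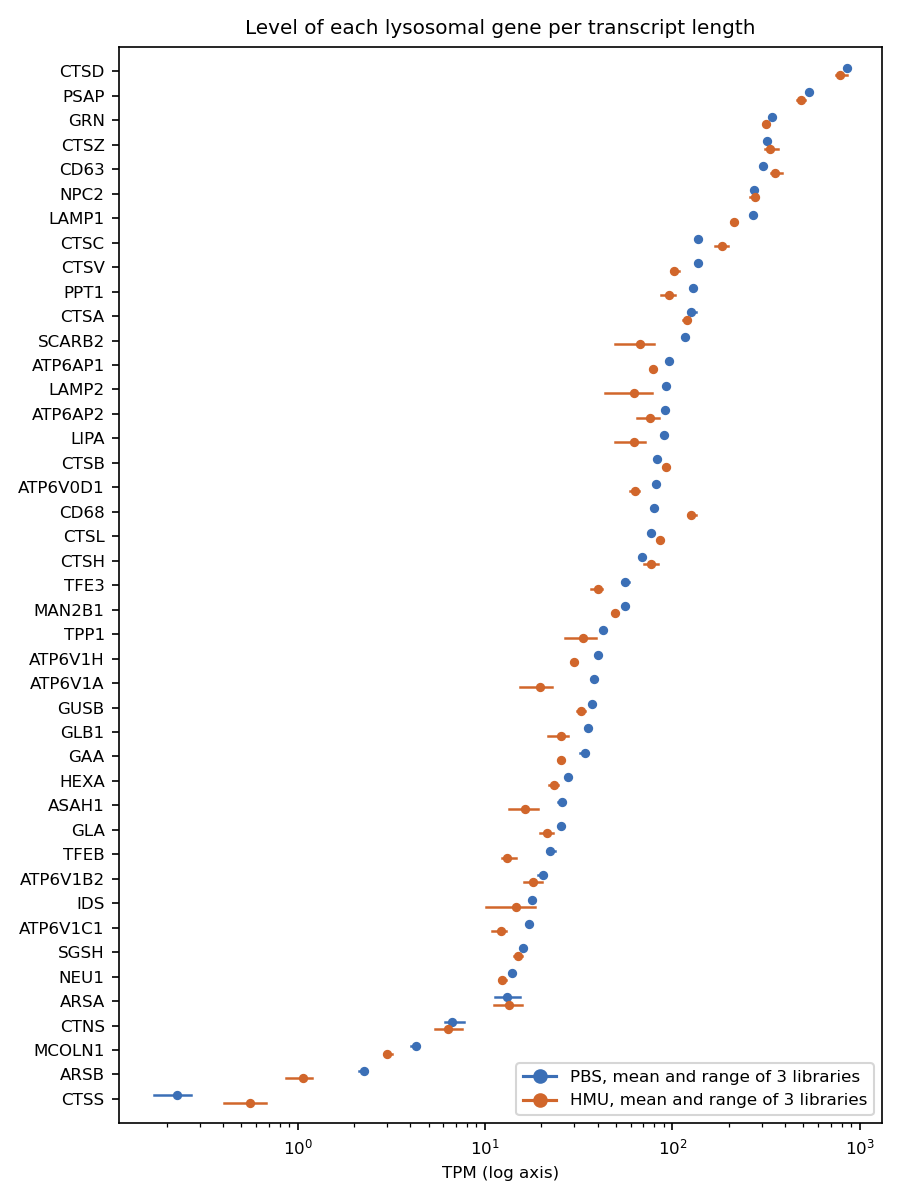
Mean TPM of each of the 43 genes on a log axis, with the range over 3 libraries, in PBS (blue) and HMU (orange), ordered by the PBS mean. CTSD is at the top and CTSS at the bottom in both groups. CD68, CTSS, CTSC, CD63, CTSB, CTSL and CTSH lie to the right in HMU, while most other genes lie at or to the left of their PBS value.

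The summed TPM of the 43 genes was 4862 ± 49.7 in PBS and 4489 ± 16.4 in HMU, a ratio of 0.92, with no overlap. The summed TMM-scaled CPM was 4858 ± 46.2 and 5679 ± 298, a ratio of 1.17, again with no overlap. The direction of the sum therefore differs between the scales, and as a plain share of counts the genes held 0.54% in PBS and 0.51% in HMU, with HMU replicate 2 inside the PBS range. The ratio of summed TPM was 0.98 for the proteases, 0.95 for the membrane proteins and 0.90 for the lipid-handling proteins and progranulin. For the glycosidases and sulfatases it was 0.84, for the V-ATPase genes 0.77, and for TFEB and TFE3 together 0.68. In summed TMM-scaled CPM the ratios, in the same order, were 1.29, 1.08, 1.17, 1.10, 0.98 and 0.91.

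Of 172 other genes of the lysosome and its supply, listed from background knowledge, 163 were tested, 55 were higher (33.7%, against 24.8% of all tested genes) and 26 lower (16.0%, against 24.9%). Both directions together came to 49.7%, as over all tested genes. Among other proteases 1 of 8 tested genes was higher, DPP7, a dipeptidyl peptidase (log2 fold change 0.48 ± 0.15), and 1 was lower. Among other glycosidases and sulfatases 4 of 17 were higher and 3 lower. HYAL1, a hyaluronidase, went from 7.80 ± 0.281 to 15.6 ± 1.26 CPM (log2 fold change 1.00 ± 0.088, edgeR adjusted p = 8.8e-05). ARSG, a sulfatase of heparan sulfate, had a log2 fold change of -0.69 ± 0.12 (edgeR adjusted p = 0.0025). In the list of lipases, phosphatases and nucleases none of the tested enzymes was called at the adjusted p. Its 1 call among 10 tested genes was NPC1, which is no enzyme of these kinds but the membrane partner of NPC2 in cholesterol export (log2 fold change 0.45 ± 0.11, edgeR adjusted p = 0.011). The calls of DPP7 and NPC1 were lost with library sizes only and without HMU replicate 1, that of NPC1 also without PBS replicate 1 and that of DPP7 without any 1 PBS library.

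Other lysosomal membrane proteins split, with 9 of 26 higher and 8 lower (34.6% and 30.8%, against 24.8% and 24.9% of all tested genes). SLC15A3, a transporter of histidine and peptides, rose (log2 fold change 1.81 ± 0.29), and SLC29A3, a transporter of nucleosides, fell from 6.65 ± 0.346 to 2.45 ± 0.217 CPM (edgeR adjusted p = 0.0017 and 4.2e-05). For mannose 6-phosphate tagging and sorting 5 of 15 were higher and 2 lower (33.3% and 13.3%, against the same 24.8% and 24.9%). GGA1, an adaptor that loads the receptors for transport, had a log2 fold change of 0.38 ± 0.084, and IGF2R, the large mannose 6-phosphate receptor, -0.35 ± 0.11 (edgeR adjusted p = 0.0073 and 0.037). GGA1 was not called with library sizes only, and IGF2R was not called without HMU replicate 1 or any 1 PBS library. Of the regulators of mTORC1 at the lysosome, 5 of 23 were higher and 4 lower (21.7% and 17.4%, against the same 24.8% and 24.9%). LAMTOR5, a part of the Ragulator anchor, had a log2 fold change of 0.54 ± 0.10 (edgeR adjusted p = 0.0036). SESN2, which holds mTORC1 back when leucine is scarce, had a log2 fold change of -1.49 ± 0.09 (edgeR adjusted p = 1.3e-05). LAMTOR5 was not called with library sizes only.

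Autophagy genes were higher in 12 of 26 cases and lower in 4 (46.2% and 15.4%, against 24.8% and 24.9% of all tested genes). GABARAPL1, which coats autophagosomes, went from 39.9 ± 2.06 to 119 ± 6.44 CPM (log2 fold change 1.57 ± 0.076, edgeR adjusted p = 4.3e-06), and UVRAG, a part of the Beclin complex, had a log2 fold change of -0.53 ± 0.083 (edgeR adjusted p = 0.0015). Of the cystatins, the inhibitors of cysteine cathepsins, 3 of 4 tested genes were higher and none lower, under TMM, library sizes only and TPM alike. Under these scalings, in the same order, 24.8%, 13.4% and 10.98% of all tested genes were higher, and 24.9%, 43.7% and 50.9% lower. CST6, an inhibitor of cathepsins L and V, rose with a log2 fold change of 1.66 ± 0.29 (edgeR adjusted p = 0.0025). Genes of lysosome repair and damage sensing were higher in 9 of 15 cases and lower in none, against 24.8% and 24.9% of all tested genes. With library sizes only the counts were 5 higher and 2 lower, against 13.4% and 43.7%. On the TPM scale they were 4 and 4, against 10.98% and 50.9%. LGALS9, a galectin that binds glycans exposed in torn lysosomes, had 0.932 ± 0.0344 CPM in PBS and 3.08 ± 0.0956 CPM in HMU (log2 fold change 1.72 ± 0.12, edgeR adjusted p = 2.8e-05).

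Scaled by library size alone, where 13.4% of all tested genes were higher and 43.7% lower, most of these lists held more genes lower than higher. The autophagy list then had 6 higher and 11 lower, the sorting list none and 6, the mTORC1 list 2 and 10, the other membrane proteins 8 and 17, the other glycosidases and sulfatases 2 and 12, the other proteases none and 4, and the lipases, phosphatases and nucleases none and 6. On the TPM scale, where 10.98% of all tested genes were higher and 50.9% lower, the autophagy list had 3 and 12, the sorting list none and 7, the mTORC1 list none and 13, the other membrane proteins 7 and 17, and the other glycosidases and sulfatases 2 and 12.

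**Figure D5:**
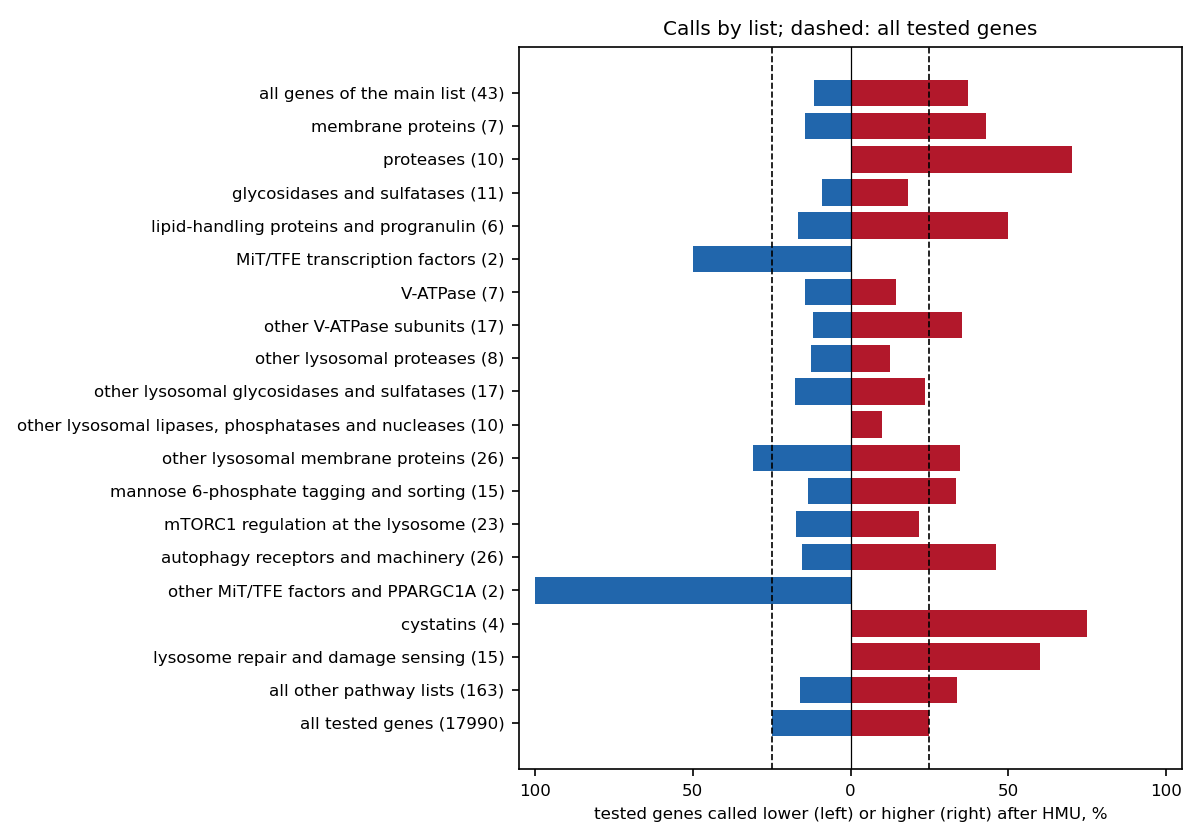
Percent of tested genes called higher (red, right) or lower (blue, left) after HMU in each role group of the 43 genes, in each list of other pathway genes and over all tested genes, with the number tested in brackets; dashed lines mark 24.8% and 24.9%, the shares of all tested genes. The 10 proteases, the list of lipases, phosphatases and nucleases, the cystatins and the repair genes show bars to the right only, and lists of 2 to 4 genes give bars that 1 gene can move far.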

How the data were processed

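The deposited table holds 3 columns per library: read counts, FPKM and TPM, so named in its headers. The deposited counts are whole numbers, used as raw counts. The authors scaled the deposited FPKM and TPM by length and library, per the file headers; FPKM was not used. Builds and tools in the submitters' processing notes are GRCh38, HISAT2 2.1.0, StringTie 2.1.3b, Trimmomatic 0.38 and FastQC 0.11.7; the sources used here do not say which made the counts or whether strand was used, though the kit was stranded, per the labels. Columns headed HMO were taken as HMU.

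Counts of the whole table were fitted in R 4.3.3 with edgeR 4.0.16 (filterByExpr, TMM, default quasi-likelihood fit on group, Benjamini-Hochberg over 17990 genes, called under 0.05). SE is the log2 fold change over the root of F. CPM served for 1 gene between groups, TPM between genes. Alternatives used DESeq2 1.42.0 and limma 3.58.1. Fits were also run on simulated counts in which few genes changed, in random directions, so that run cannot test the choice of scaling. Coordinates are RefSeq's on GRCh38.p14. Genes and lists were chosen with earlier results of these data known. Each library's value is given, per role group, for the 2 called genes with the largest change and the most abundant gene, and for TFEB and TFE3; each further list names its largest called rise and fall at 1 CPM or more. Outside this rule, each library's value is also given for IDS, MITF, ATP6V1C2 and the genes marked as given after their values had been seen. P-values measure spread between cultures of 1 line.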

Additional observations from a re-analysis of the deposited data

How the results depend on the processing

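Over 16 alternatives the 43 genes gave 687 comparisons, of which 545 kept direction and side of the threshold, 61 lost the call, 37 gained one and 44 changed sign. The counts of genes higher and lower, 16 and 5 in the report, were 7 and 17 with library sizes only, 6 and 24 on log2(TPM + 1), 13 and 3 with no filter on low counts, 10 and 2 at an adjusted p under 0.01, and 10 to 22 and 2 to 5 when 1 library was left out; without PBS replicates 1 and 2 they were 10 and 2 each. DESeq2 gave 20 and 5, limma-voom 16 and 5, RLE 19 and 4, a filter of 1 CPM in 3 libraries 15 and 5 of 42 genes, and the newer quasi-likelihood fit, added after seeing the data, 16 and 5. The median, a log2 fold change of 0.14, became -0.14 with library sizes only, -0.25 on TPM, and 0.13 to 0.15 with 1 library left out. Where the cause of a change is not given by the alternative's own construction, it was not tested.

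The sign turned with library sizes only for ATP6AP1 (-0.16), ATP6AP2 (-0.15), ATP6V0D1 (-0.26), ATP6V1B2 (-0.075), GLA (-0.13), GUSB (-0.088), HEXA (-0.14), IDS (-0.17), LAMP1 (-0.23), MAN2B1 (-0.058), NEU1 (-0.058), PSAP (-0.017) and TPP1 (-0.24). On log2(TPM + 1) it turned for ATP6AP1 (-0.27), ATP6AP2 (-0.27), ATP6V0D1 (-0.38), ATP6V1B2 (-0.16), CTNS (-0.069), CTSA (-0.077), CTSD (-0.13), GLA (-0.25), GRN (-0.098), GUSB (-0.20), HEXA (-0.23), IDS (-0.31), LAMP1 (-0.35), MAN2B1 (-0.18), NEU1 (-0.17), PSAP (-0.14), SGSH (-0.090) and TPP1 (-0.36). GAA, near 0, turned with DESeq2 (0.0017) and RLE (0.0017) and ranged from -0.064 to 0.021 with 1 library left out. The same range was -0.072 to 0.075 for ATP6V0D1, -0.10 to 0.032 for ATP6V1H, -0.055 to 0.045 for CTSV, -0.063 to 0.30 for IDS, -0.034 to 0.013 for PPT1 and -0.044 to 0.13 for TPP1.

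Deviations of same-numbered libraries correlated at -0.019, 0.035 and 0.048, and those of differently numbered ones at -0.060 to 0.026. The replicate numbers thus gave no sign of pairing, but with 3 libraries per group these values cannot show that the cultures were unpaired. With a replicate block 15 of the 43 genes were higher and 4 lower, with a median of 0.14. CACGTG, GTCACGTG and TCACGTGA stood in 29.0%, 22.6% and 16.1% of the 31 genes with a promoter window. The shares were 12.1%, 4.82% and 2.02% of tested genes with a window, and 24.4%, 19.3% and 11.85% of the other pathway genes with one.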
